A study of Rattus norvegicus with 12 samples.

Results

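Genes of the ubiquitin ligase and the autophagy-lysosome routes of protein removal were followed through a time course of mechanical stretch in cultured rat heart cells. The 35 genes were chosen by name: 9 in a group of muscle ubiquitin ligases, the FoxO factors of the atrophy programme and Mdm4, 2 genes of ubiquitin supply, 15 autophagy genes, 6 lysosome genes and 3 calpain entries. Every array probe whose gene name was 1 of these was used. There were 41 such probes for 33 of the 35 genes, among 14376 genes tested in all. The names Foxo1 and Calpn1 had no probe of that name and were not analysed here. The array name Ctsl1 is the gene now called Ctsl.

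The study measured total RNA of neonatal rat ventricular cardiomyocytes on 1-colour oligonucleotide arrays. These are heart muscle cells isolated from newborn rats and used as a primary culture model of the stretched ventricle; no strain or genetic change is given. All cells grew in medium with 10% fetal calf serum, for 24 h before the experiment, on collagen-coated silicone membranes. The 4 groups, with 3 arrays each, were unstretched control cells and cells under pulsatile biaxial stretch (20% elongation) for 2 h, 6 h or 24 h. The labels number the replicates but do not say whether they are separate cell isolations, so p-values measure the spread between these cultures, which may be technical. The same controls served all 3 times and their own time in culture is not given, so stretch and time in culture cannot be told apart.

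Ubiquitin ligases attach ubiquitin to chosen proteins, which the proteasome then degrades. In muscle, atrogin-1 (Fbxo32) and MuRF1 (Trim63) are the classic ligases of atrophy, and FoxO factors switch on their genes. In autophagy a membrane closes around cytoplasm or organelles and delivers them to lysosomes, whose acid hydrolases digest the contents. TFEB is a transcription factor that drives many lysosome and autophagy genes through a short DNA element called the CLEAR motif, and the kinase PINK1 marks damaged mitochondria for this route.

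Sequence was read for the starts of these genes because TFEB and FoxO act through short motifs there. RefSeq windows (rat build GRCr8) held the 250 bases before the transcription start of 25 of the 33 measured genes, in 26 windows. The E-box CACGTG, the core of the CLEAR motif, lay in 6 of these 26 windows (Atg3, Atg5, Ctsd, Lamp1, Pink1 and Stub1) and in 5.593% of 33469 windows of all genes. Its 8-base form TCACGTGA, which contains that E-box, lay in 3 (Atg3, Ctsd and Lamp1), against 0.657% of all windows. The FoxO core GTAAACA lay in 1 (Trim63), against 3.215%, and TGACNNNGC, the antioxidant response element core bound by NRF2, in 3 (Ctsl1, Gabarap and Ubb), against 10.078%. Both strands were searched, and a match is a description of the letters, not evidence of binding. The windows of Lamp1, which holds the E-box 5 times, of Ctsd and Pink1, which each hold it 2 times, and of Trim63 are printed because the results below turn on these genes, with the E-box, or in Trim63 the FoxO core read on the opposite strand, in capitals. They are read along each gene's strand from chr16:83075064-83075313 (minus strand) for Lamp1, chr1:206968822-206969071 (minus) for Ctsd, chr5:155825951-155826200 (minus) for Pink1 and chr5:151816986-151817235 (plus) for Trim63.
Lamp1: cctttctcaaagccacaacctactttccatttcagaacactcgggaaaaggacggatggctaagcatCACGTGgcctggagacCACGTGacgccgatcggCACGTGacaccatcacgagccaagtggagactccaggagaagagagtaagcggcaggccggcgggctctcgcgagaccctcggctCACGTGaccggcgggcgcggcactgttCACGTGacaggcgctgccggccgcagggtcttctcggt
Ctsd: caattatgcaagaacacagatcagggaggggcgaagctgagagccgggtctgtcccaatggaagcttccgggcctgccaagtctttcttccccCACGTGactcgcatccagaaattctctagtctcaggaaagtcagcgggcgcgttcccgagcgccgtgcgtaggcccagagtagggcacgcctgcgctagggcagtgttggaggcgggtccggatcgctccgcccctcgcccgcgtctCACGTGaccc
Pink1: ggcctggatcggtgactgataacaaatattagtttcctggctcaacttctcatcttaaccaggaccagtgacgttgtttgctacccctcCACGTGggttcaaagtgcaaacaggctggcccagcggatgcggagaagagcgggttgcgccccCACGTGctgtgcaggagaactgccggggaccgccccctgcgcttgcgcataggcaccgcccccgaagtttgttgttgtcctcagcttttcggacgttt
Trim63: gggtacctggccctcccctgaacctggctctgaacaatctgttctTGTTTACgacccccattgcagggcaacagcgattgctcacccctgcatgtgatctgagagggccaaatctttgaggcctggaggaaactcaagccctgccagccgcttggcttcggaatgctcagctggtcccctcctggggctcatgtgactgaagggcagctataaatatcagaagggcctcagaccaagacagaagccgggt
The E-boxes of Lamp1 began at positions -183, -167, -150, -65 and -38 from the start, those of Ctsd at -157 and -10, those of Pink1 at -161 and -98, and the Trim63 match at -205.

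Levels are given as log2 of the processed signal minus the array's own 75th percentile, so 0 is the signal that 75% of spots lie below, and 1 unit is a doubling of signal. A change is the difference of 2 group means with its standard error, 3 arrays a group, and a gene is called changed at a Benjamini-Hochberg adjusted p below 0.05 over all 14376 genes. Levels are not compared between genes, since probes differ in brightness. Between 64.7% and 70.6% of 58717 spots stood well above background on an array and 0 were saturated. All measured genes were above background on every array with the probe used. Cardiomyocyte markers were all detected, 15 of 15. The control, 2 h and 2 of the 6 h arrays shared 1 slide, and the third 6 h array and the 24 h arrays the other, so each value at 24 h against control crosses slides.

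In stretched against control cells these genes were called about as often as all genes tested. After 2 h 4 of 33 were called (2 higher, 2 lower), or 12.1%, against 9.20% of all genes tested (3.10% higher and 6.10% lower). After 6 h 4 were called (1 higher, 3 lower), 12.1% against 16.8% (5.06% higher and 11.7% lower). After 24 h 17 were called (4 higher, 13 lower), 51.5% against 47.9% of all genes (16.2% higher and 31.7% lower). The median change was 0.05, -0.02 and -0.07 at 2 h, 6 h and 24 h, beside -0.01, -0.05 and -0.08 over all genes. The groups did not overlap for 10, 12 and 21 of the 33 genes at the 3 times, where 28.6%, 39.4% and 58.9% of all genes did not overlap. A moderated F test over the 4 groups called 17 of the 33, or 51.5%, against 52.8% of all genes. The counts therefore stand near the background, and what follows describes which genes they were.

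**Figure D1:**
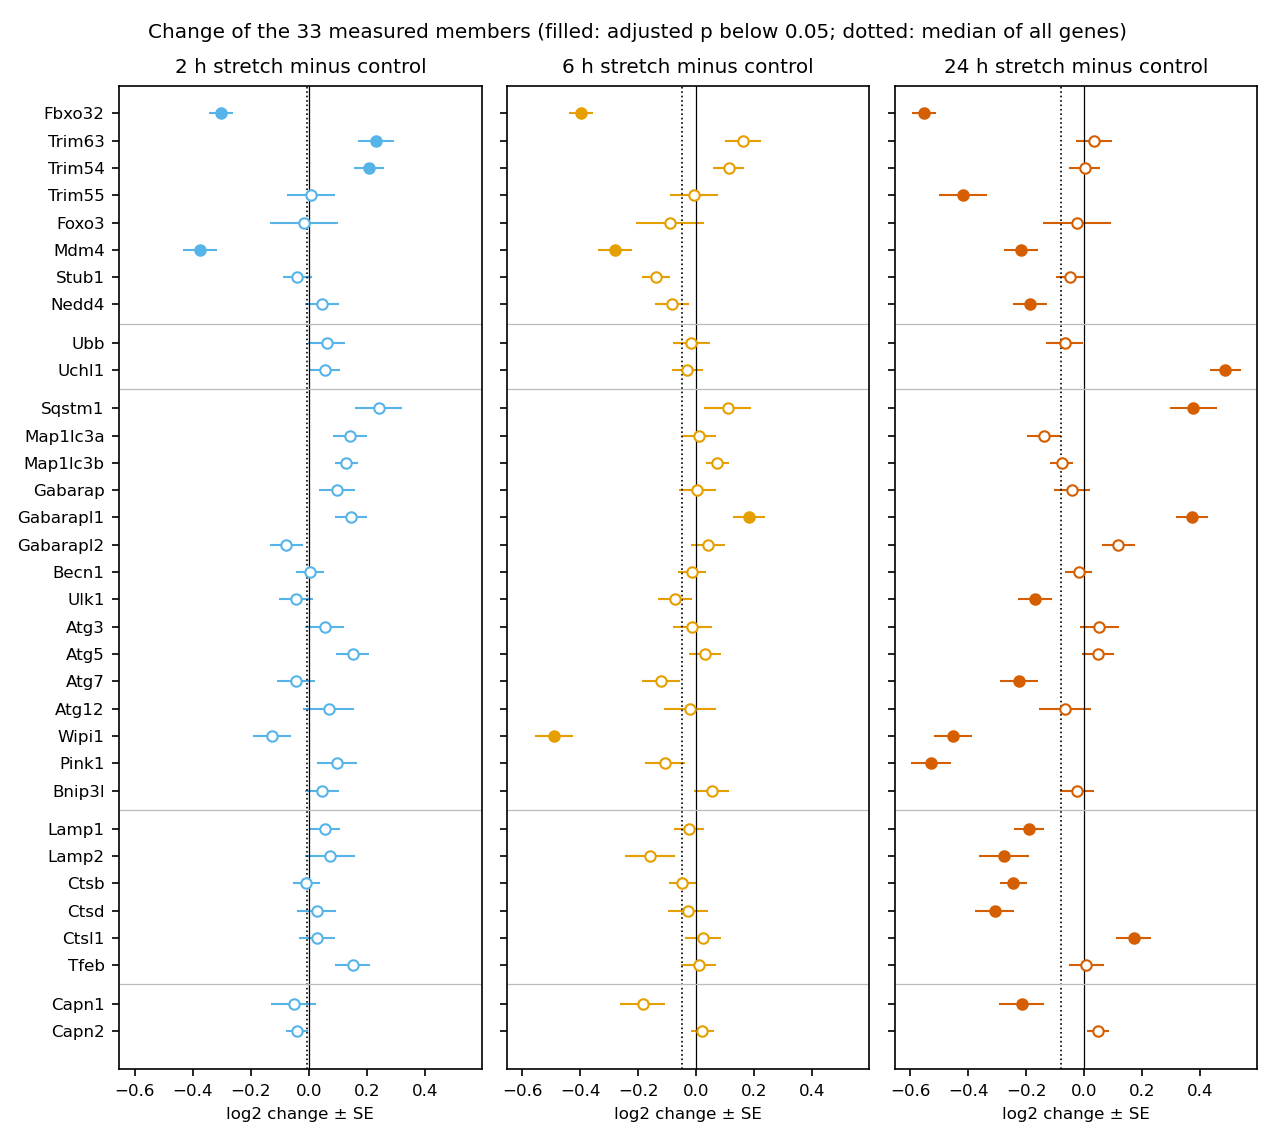
Change of each of the 33 measured genes after 2 h, 6 h and 24 h of stretch (log2, stretch minus control; points are estimates from 3 arrays a group, bars their standard errors, filled points an adjusted p below 0.05, dotted line the median of all genes). Fbxo32 lies left of 0 at all 3 times, Wipi1 is filled from 6 h, and Uchl1, Sqstm1 and Gabarapl1 stand farthest right at 24 h.

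The 2 classic atrophy ligases differed in these data. Fbxo32, the F-box protein atrogin-1 that picks the substrates of an SCF ligase complex (probe at chr7:94921822-94932899, rat build rn4), fell at all 3 times. Its log2 level was -0.12, -0.17 and -0.22 on the control arrays. After 2 h it was -0.44, -0.48 and -0.50, after 6 h -0.54, -0.58 and -0.59, and after 24 h -0.72, -0.73 and -0.72. Every stretched array lay below every control array, and the 4 groups did not overlap one another. Fbxo32 fell by 0.30 ± 0.04 at 2 h (adjusted p = 0.0030), by 0.40 ± 0.04 at 6 h (6.5e-04) and by 0.55 ± 0.04 at 24 h (3.8e-06), the last being 1.47-fold lower than control. The further difference of -0.16 between 24 h and 6 h was called (adjusted p = 0.020), but not without 24 h replicate 2 (0.054) or 3 (0.053) or 6 h replicate 1 (0.077) or 2 (0.056). This difference was also not called with array medians (-0.06, adjusted p = 0.34), slide as a block (-0.14, 0.23) or spike-in spots (-0.21, 0.82).

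Trim63, the RING-finger ligase MuRF1 that targets thick-filament proteins (probe at chr5:153069319-153069378), was higher than control at 2 h only by the test used. Its level was -0.27, -0.40 and -0.22 in control cells, -0.16, 0.04 and -0.08 after 2 h, -0.10, -0.16 and -0.15 after 6 h, and -0.23, -0.25 and -0.31 after 24 h. The 2 h and 6 h arrays all lay above the control arrays, and the 24 h arrays lay among them. Trim63 rose by 0.23 ± 0.06 at 2 h (adjusted p = 0.042), while the change was 0.16 ± 0.06 at 6 h (0.10) and 0.03 ± 0.06 at 24 h (0.68). The 2 h call was lost when any 1 of 11 arrays was left out, all but 2 h replicate 1, with adjusted p of 0.053 to 0.14. It was also lost with only slide 1 (0.10), and with the array's spike-in spots as the scale the change was 0.40 with an adjusted p of 0.57.

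The other sarcomeric members of that family went separate ways. Trim54 (MuRF3), which sits on microtubules and the Z-disc, rose by 0.21 ± 0.05 at 2 h (adjusted p = 0.034) and was at 0.11 at 6 h (0.17) and 0.00 at 24 h (0.98). Its 2 h call was lost when any 1 of 6 arrays was left out, namely replicates 1 and 2 of the 2 h, 6 h and control cells (adjusted p of 0.0504 to 0.10). Trim55 (MuRF2), which binds titin at the M-band (probe at chr2:104762325-104762384), was at 2.35, 2.54 and 2.26 in control cells, 2.46, 2.31 and 2.39 after 2 h, 2.43, 2.45 and 2.25 after 6 h, and 1.92, 2.04 and 1.92 after 24 h. The first 3 groups overlapped and all 24 h arrays lay below them. Trim55 fell by 0.42 ± 0.08 at 24 h (adjusted p = 0.0020), or 1.34-fold, against changes of 0.01 at 2 h and -0.01 at 6 h. With slide as a block its 24 h change was -0.22 (adjusted p = 0.31).

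Of the other genes of this group, Mdm4, an inhibitory partner of p53 and a partner of the ligase Mdm2, fell by 0.37 ± 0.06 at 2 h (adjusted p = 0.0052), 0.28 at 6 h (0.010) and 0.22 at 24 h (0.011). Nedd4, a HECT ligase of membrane proteins, fell by 0.19 at 24 h (0.021), and did not pass the test without 24 h replicate 1 (0.074) or 3 (0.062) or control replicate 1 (0.073). Stub1, the chaperone-linked ligase CHIP, was at -0.04, -0.14 and -0.05 at 2 h, 6 h and 24 h (adjusted p = 0.67, 0.076 and 0.43). Foxo3, the measured FoxO factor, was at -0.01, -0.09 and -0.03 (0.96, 0.63 and 0.87). Of the 8 measured genes of this group 0 rose and 4 fell at 24 h (Fbxo32, Trim55, Mdm4 and Nedd4). With spike-in scaling the 24 h values of Mdm4 and Nedd4 were 0.21 and 0.24, and with array medians as the scale Nedd4 was at 0.01, so the direction of these 2 rests on the scale.

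In ubiquitin supply, 1 of the 2 genes was called at 24 h, where 47.9% of all genes were called. Uchl1, a deubiquitinase that recycles ubiquitin and is abundant in neurons (probe at chr14:44114392-44114451), had levels of 3.37, 3.37 and 3.31 in control cells, 3.48, 3.32 and 3.40 after 2 h, 3.32, 3.34 and 3.29 after 6 h, and 3.79, 3.91 and 3.80 after 24 h. The first 3 groups overlapped and the 24 h arrays all lay above them. Uchl1 rose by 0.49 ± 0.05 at 24 h (adjusted p = 4.5e-05), 1.40-fold, which placed its change at percentile 96.7 among all genes. With slide as a block the rise was 0.52 (0.0090). Its 24 h level also differed from that at 6 h by 0.52 (adjusted p = 7.5e-05). The polyubiquitin gene Ubb was at 0.06, -0.02 and -0.07 at the 3 times (adjusted p = 0.60, 0.88 and 0.41).

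**Figure D2:**
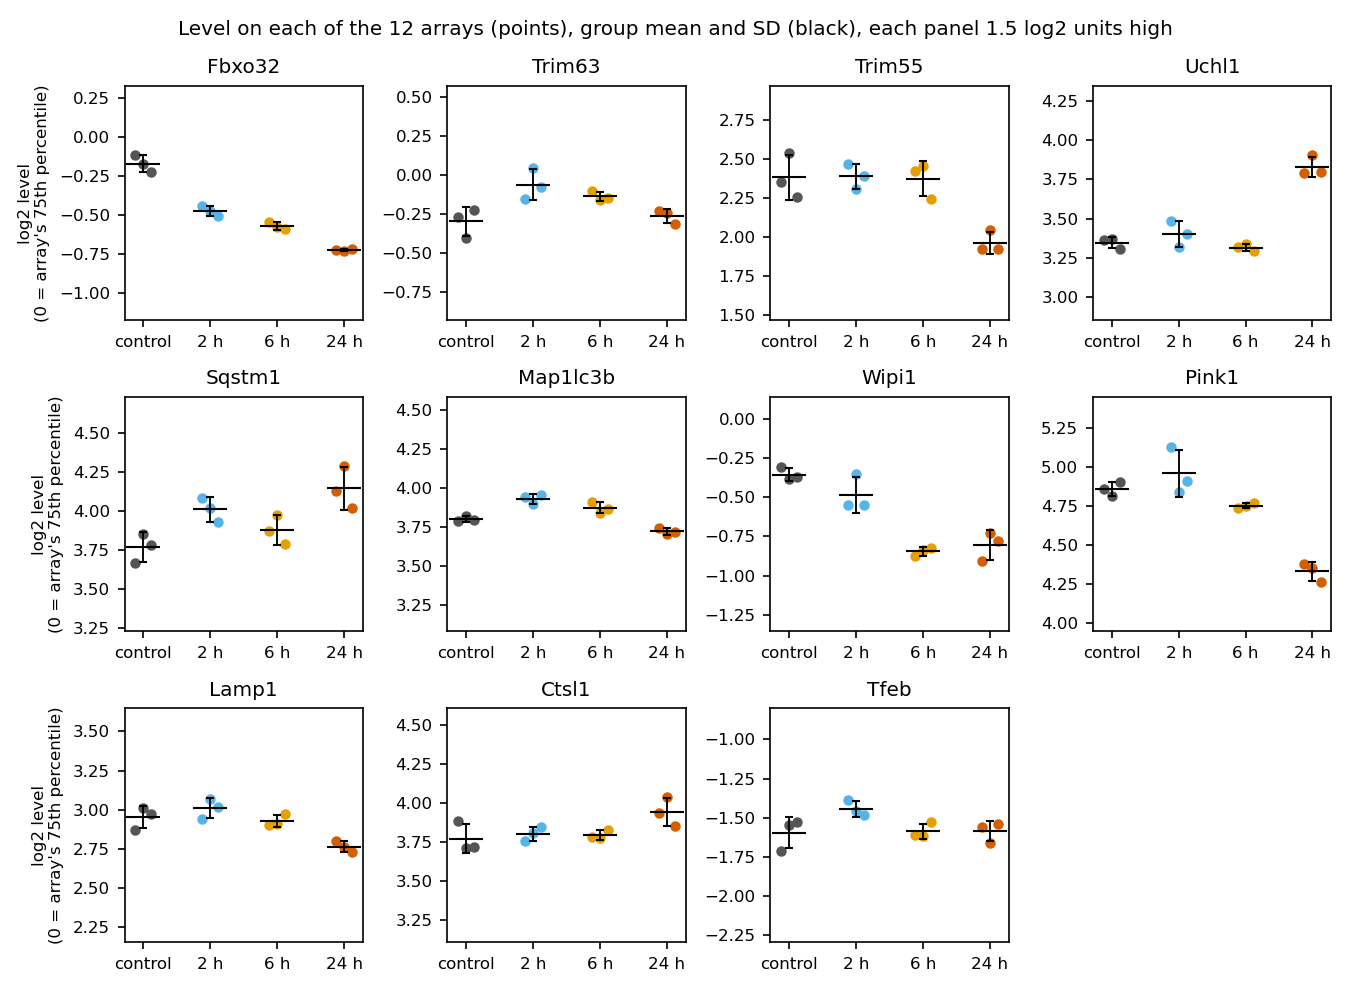
Log2 level (vertical axis, 0 is the array's 75th percentile) of 11 genes on each of the 12 arrays, in the order control, 2 h, 6 h and 24 h; points are arrays, black bars the group mean and SD, and every panel spans 1.5 log2 units. Fbxo32 steps down at each time, Trim55, Pink1 and Uchl1 stand apart from the other groups at 24 h, and Tfeb and Trim63 at 24 h overlap the controls.

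Among the autophagy genes 0 of 15 were called at 2 h by limma, where 5 had an unadjusted p below 0.05 (all 5 higher), 2 at 6 h (1 higher, 1 lower) and 6 at 24 h (2 higher, 4 lower). These shares were 0%, 13.3% and 40.0%, against 9.20%, 16.8% and 47.9% of all genes. The share of all genes at the unadjusted threshold is not given here. Sqstm1 encodes p62, the receptor that links ubiquitinated cargo to the autophagosome and is itself consumed by autophagy (probe at chr10:35751726-35751785). Its level was 3.67, 3.85 and 3.78 in control cells, 4.08, 4.02 and 3.93 after 2 h, 3.87, 3.97 and 3.78 after 6 h, and 4.12, 4.29 and 4.02 after 24 h. The 2 h and 24 h arrays lay above the controls and the 6 h arrays overlapped them. Sqstm1 rose by 0.38 ± 0.08 at 24 h (adjusted p = 0.0033), 1.30-fold, and was at 0.24 at 2 h (0.093) and 0.11 at 6 h (0.40). A second Sqstm1 probe (chr10:35759331-35759390) was at 0.83 ± 0.05 at 24 h and at -0.06 and 0.04 at 2 h and 6 h, so the probes differed in size at 24 h and in sign at 2 h.

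The ubiquitin-like proteins of the LC3 and GABARAP family coat the forming autophagosome. Gabarapl1 rose by 0.37 ± 0.05 at 24 h (adjusted p = 3.0e-04), with 0.40 ± 0.08 on its second probe. Its change at 6 h was 0.18 ± 0.05 (0.044), a call lost without any 1 control, 2 h or 6 h array or 24 h replicate 1 (adjusted p of 0.051 to 0.14). Map1lc3b, the LC3B gene (probe at chr19:51853509-51853568), was at 3.79, 3.82 and 3.79 in control cells, 3.94, 3.90 and 3.95 after 2 h, 3.91, 3.84 and 3.87 after 6 h, and 3.75, 3.70 and 3.72 after 24 h. Its 2 h and 6 h arrays lay above the controls and its 24 h arrays below them, yet the changes were 0.13, 0.07 and -0.08 and did not pass the test (adjusted p = 0.065, 0.23 and 0.13). The 24 h level did differ from those at 2 h (-0.21, adjusted p = 0.0016) and 6 h (-0.15, 0.018). Both of these calls were lost with array medians, spike-in spots and slide as a block. The second Map1lc3b probe (chr19:51854163-51854222) was at -0.40 ± 0.08 at 24 h.

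Map1lc3a was at 0.14, 0.01 and -0.14 (adjusted p = 0.16, 0.94 and 0.072), and its 24 h level was below that at 2 h by a called difference of -0.28 (0.0027). That call was lost with array medians, spike-in spots and slide as a block. Gabarap was at 0.10, 0.00 and -0.04 and did not pass the test at any time. Gabarapl2 was at -0.08, 0.04 and 0.12 against control, with 24 h above 2 h by 0.20 (adjusted p = 0.017), a call lost with spike-in spots and slide as a block. Each of its 3 probes was at 0.12 at 24 h. Gabarapl1 was called higher at 24 h under each of the 23 settings run. Gabarapl2 was called higher at 24 h with array medians (0.31), spike-in spots (0.55), normexp (0.16) and the deposited processed table (0.16), and Map1lc3b with array medians (0.12).

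**Figure D3:**
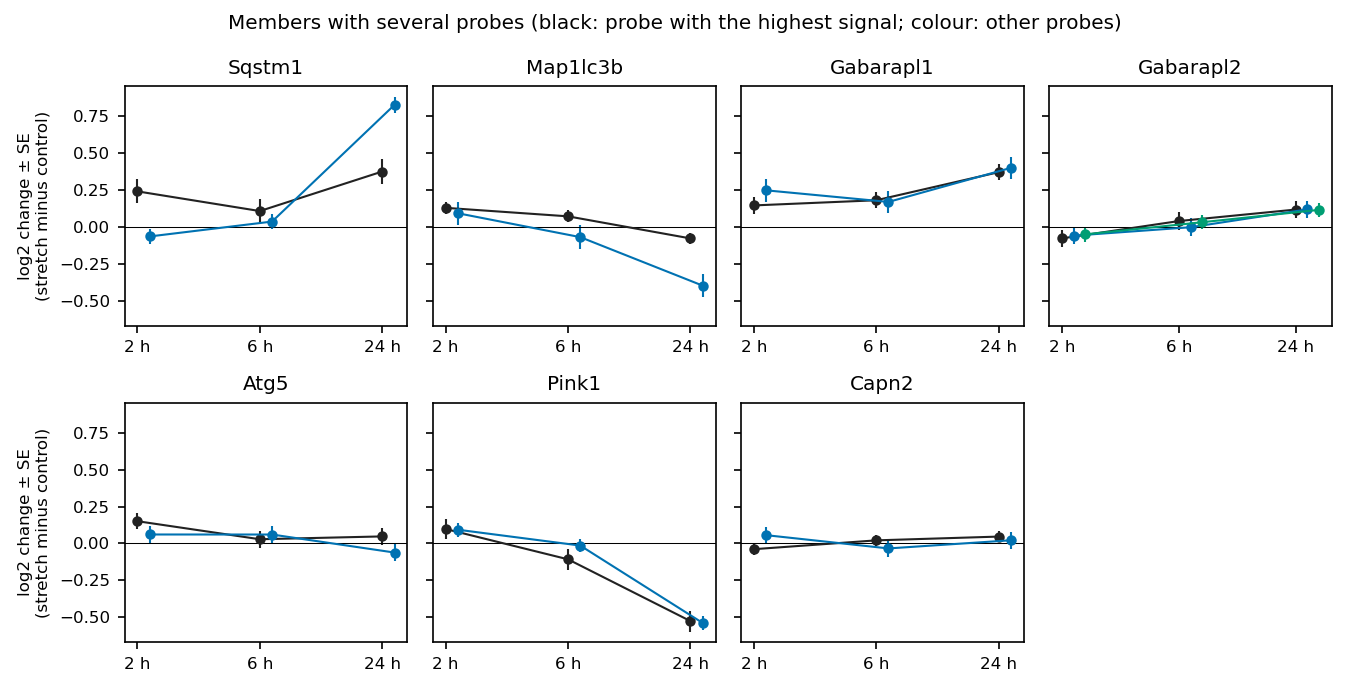
Change against control (log2 ± SE, 3 arrays a group) at 2 h, 6 h and 24 h for the 7 genes with several probes; black is the probe with the highest signal, colours the others. The probes of Gabarapl1, Gabarapl2, Pink1 and Capn2 lie together, whereas those of Sqstm1 and Map1lc3b part at 24 h.

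Of the genes that start and extend the autophagosome, Wipi1 differed at 6 h and 24 h and Ulk1 and Atg7 at 24 h. Wipi1, which reads phosphoinositide on the early membrane (probe at chr10:98749014-98749073), had levels of -0.31, -0.39 and -0.37 in control cells, -0.55, -0.35 and -0.55 after 2 h, -0.88, -0.84 and -0.82 after 6 h, and -0.91, -0.73 and -0.78 after 24 h. The 2 h arrays overlapped the controls, and all 6 later arrays lay below both groups. Wipi1 fell by 0.49 ± 0.07 at 6 h (adjusted p = 0.0013), 1.41-fold, and by 0.45 ± 0.07 at 24 h (3.0e-04). It was the 1 gene of the 33 called between 6 h and 2 h, at -0.36 (0.011), where 10.5% of all genes were called. On slide 1 alone this last difference was -0.38 with an adjusted p of 0.055.

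Ulk1, the kinase that starts autophagy, fell by 0.17 ± 0.06 at 24 h (adjusted p = 0.037) and Atg7, the E1-like enzyme of the conjugation system, by 0.22 ± 0.07 (0.017). Ulk1 did not pass the test without any 1 of the 24 h arrays, 6 h replicate 1 or control replicate 2 or 3 (adjusted p of 0.0501 to 0.14), nor Atg7 without 24 h replicate 3 (0.057) or control replicate 2 (0.057) or 3 (0.069). With spike-in scaling the 2 genes were at 0.26 and 0.21. Becn1, a subunit of the lipid kinase complex, was at 0.00, -0.01 and -0.02 at the 3 times. Atg3, Atg5 and Atg12, which act in the same conjugation steps as Atg7, ranged between -0.07 and 0.15 over the 3 times and did not pass the test (adjusted p of 0.12 to 0.91).

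Mitophagy, the autophagy of mitochondria, was covered by Pink1 and Bnip3l, of which Pink1 fell at 24 h. Pink1, whose kinase gathers on damaged mitochondria (probe at chr5:157091677-157091736), was at 4.86, 4.81 and 4.90 in control cells, 5.13, 4.84 and 4.91 after 2 h, 4.74, 4.75 and 4.77 after 6 h, and 4.38, 4.35 and 4.26 after 24 h. The 2 h arrays overlapped the controls, the 6 h arrays lay just below them and the 24 h arrays well below all others. Pink1 fell by 0.53 ± 0.07 at 24 h (adjusted p = 1.6e-04), 1.44-fold, against changes of 0.10 at 2 h (0.42) and -0.11 at 6 h (0.32). Its second probe was at -0.54 ± 0.05 at 24 h, and with slide as a block the change was -0.55 (0.023). The differences from 6 h (-0.42, adjusted p = 0.0017) and 2 h (-0.62, 6.1e-05) were called too. Bnip3l, a receptor on the mitochondrial surface that works without PINK1, was at 0.05, 0.05 and -0.03 (adjusted p = 0.68, 0.58 and 0.75).

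Of the 6 lysosome genes limma called 0 at 2 h and 0 at 6 h, where 1 (higher) and 0 had an unadjusted p below 0.05, and at 24 h 1 rose and 4 fell. Of all genes 9.20% and 16.8% were called at 2 h and 6 h. At 24 h 83.3% of the 6 were called, against 47.9% of all genes (16.2% higher and 31.7% lower). Lamp1, a glycoprotein that lines the lysosomal membrane and the gene with 5 E-boxes in the window above (probe at chr16:81214430-81214489), was at 2.87, 3.01 and 2.97 in control cells, 2.94, 3.07 and 3.02 after 2 h, 2.90, 2.91 and 2.97 after 6 h, and 2.80, 2.76 and 2.73 after 24 h. The first 3 groups overlapped and the 24 h arrays lay below them by a small margin. Lamp1 fell by 0.19 ± 0.05 (adjusted p = 0.012). Lamp2, its partner needed for fusion with autophagosomes, fell by 0.28 ± 0.09 (0.022), a call lost without 24 h replicate 1 (0.081) or 3 (0.054) or control replicate 1 (0.061). The cysteine protease Ctsb fell by 0.24 ± 0.05 (0.0016) and the aspartic protease Ctsd by 0.31 ± 0.07 (0.0038). These 4 falls were not called with array medians, spike-in spots or slide as a block.

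Ctsl1, the cathepsin L protease (probe at chr17:6293891-6293950), was at 3.88, 3.72 and 3.72 in control cells, 3.75, 3.81 and 3.85 after 2 h, 3.78, 3.78 and 3.83 after 6 h, and 3.94, 4.04 and 3.86 after 24 h. The 24 h arrays overlapped the controls, and the rise of 0.17 ± 0.06 only just passed (adjusted p = 0.041). The call was lost without control replicate 2 or 3, 24 h replicate 1 or 2, or any 1 of the 6 h arrays (adjusted p of 0.051 to 0.15). Tfeb itself (probe at chr9:8665358-8665417) was at -1.71, -1.55 and -1.53 in control cells, -1.38, -1.46 and -1.48 after 2 h, -1.61, -1.62 and -1.53 after 6 h, and -1.56, -1.66 and -1.54 after 24 h. Its 2 h arrays lay above the controls and its later arrays among them, with changes of 0.15 ± 0.06, 0.01 and 0.01 that did not pass the test (adjusted p = 0.15, 0.94 and 0.93).

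Of the 2 measured calpains, calcium-activated proteases of the cytosol, Capn1 was at -0.05, -0.19 and -0.22 and was called at 24 h (adjusted p = 0.039). That call was lost without any 1 control, 6 h or 24 h array except 24 h replicate 1, and without 2 h replicate 3 (adjusted p of 0.051 to 0.11). Capn2 was at -0.04, 0.02 and 0.05 on its main probe (adjusted p = 0.57, 0.75 and 0.34) and at 0.06, -0.03 and 0.02 on the other.

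The direction of many of the 24 h changes rested on the scale. With array medians in place of 75th percentiles 15 of the 33 genes were called higher and 4 lower, where the 75th percentile gave 4 and 13, and with spike-in spots limma called 9 higher and 0 lower (15 higher and 0 lower at an unadjusted p below 0.05). Under these 2 scales 54.1% and 38.1% of all genes were called (28.3% and 10.5% of these lower). The median of all genes was 0.11 and 0.35, against -0.08. Relative to that median, the median of the 33 genes was 0.01. This value is the same under each of the 3 scales by arithmetic, since a change of scale adds 1 amount to every gene. Fbxo32, Pink1, Wipi1 and Trim55 were called lower with either percentile or median. With spike-in scaling they were at -0.12, -0.10, -0.02 and 0.01, not called. The 24 h values of Lamp1, Lamp2, Ctsb and Ctsd were 0.00, -0.08, -0.05 and -0.11 with array medians and 0.24, 0.15, 0.18 and 0.12 with spike-in spots, not called in either. Uchl1, Sqstm1, Gabarapl1 and Ctsl1 were called higher under all 3. At 6 h the median of all genes with spike-in spots was 0.43, 21 of the 33 genes were called and all 21 were higher. Of all genes 47.7% were called at 6 h on that scale (0.686% of these lower). Fbxo32 and Mdm4, lower at 6 h with the percentile, were then at 0.08 and 0.20, not called. At 2 h limma called 0 of the 33 on that scale (2 at an unadjusted p below 0.05), with Fbxo32 at -0.13 and Mdm4 at -0.20. Of all genes 1.26% were called there.

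With slide as a block, which only the 6 h arrays tie together, 6 of the 33 genes were called at 24 h: Fbxo32 (-0.53), Pink1 (-0.55) and Wipi1 (-0.49) lower, and Uchl1 (0.52), Sqstm1 (0.51) and Gabarapl1 (0.43) higher. Of all genes 14.2% were called in that fit. In that fit Ctsd was at -0.34, Ctsb at -0.25, Lamp1 at -0.26 and Lamp2 at -0.25, with adjusted p of 0.09 to 0.33.

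**Figure D4:**
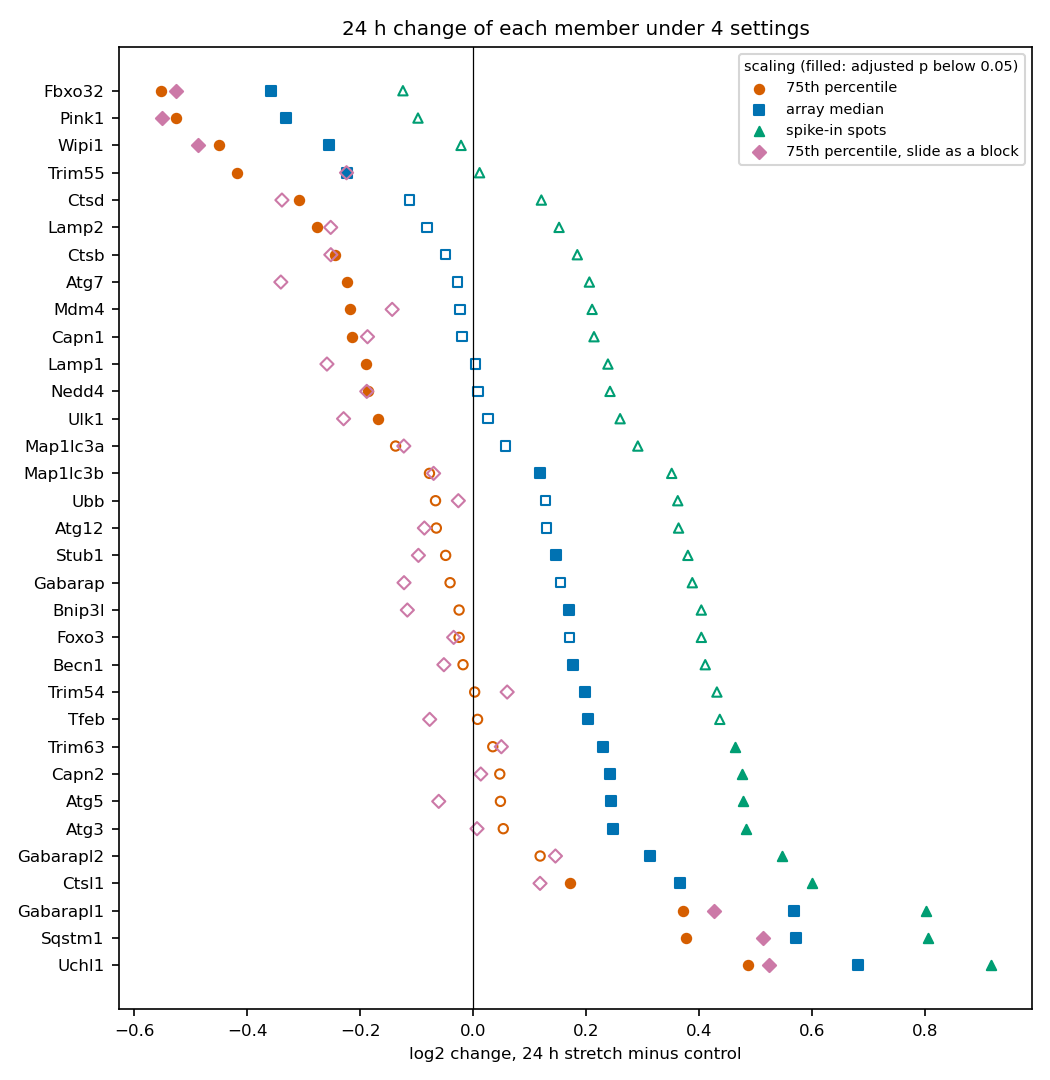
Change of each of the 33 genes after 24 h (log2, 24 h stretch minus control, 3 arrays a group) with 4 settings: array 75th percentile, array median, spike-in spots, and the percentile with slide as a block; filled symbols have an adjusted p below 0.05. Uchl1, Sqstm1 and Gabarapl1 are filled and right of 0 under all 4 settings, whereas Lamp1, Ctsb and Ctsd lie left of 0 or right of it depending on the scale.

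Other genes of the same pathways, not among the 33, were counted at 24 h from lists of known members. Array medians add 0.19 and spike-in spots 0.43 to the 24 h change of every gene, so a fall smaller than that has the other sign on that scale. With array medians 54.1% of all genes were called (28.3% of these lower), with spike-in spots 38.1% (10.5% lower) and with slide as a block 14.2% (75.7% lower). Of 49 further lysosomal hydrolases and membrane proteins 2 rose and 32 fell (median -0.31), or 69.4% called, against 47.9% of all genes. At 6 h 0 rose and 16 fell, where 5.06% of all genes were higher and 11.7% lower. With spike-in scaling 13 were higher and 0 lower at 6 h, where 47.7% of all genes were called (0.686% of these lower). With array medians 2 were higher and 5 lower, where 19.6% of all genes were called (26.3% of these lower). The cathepsin Ctss fell by 1.83 ± 0.09 (adjusted p = 2.9e-07), the GM2 activator Gm2a, a cofactor in glycolipid breakdown, by 0.87, and cathepsin Z (Ctsz) by 0.86. The median of this list was -0.11 with array medians (8 higher, 20 lower), 0.12 with spike-in scaling (7 higher, 1 lower) and -0.29 with slide as a block (0 higher, 21 lower). Of 17 subunits of the proton pump that acidifies the lysosome 5 rose and 2 fell (median 0.00), or 41.2%, near the share of all genes. Array medians gave 12 higher and 0 lower, spike-in spots 6 and 0, and slide as a block 0 and 0. Atp6v0e2 fell by 0.30 and Atp6v0e1 rose by 0.23 at 24 h, and Atp6v1h rose by 0.21 at 2 h.

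Markers of macrophages and other leukocytes moved beside the lysosome list. All 12 measured markers fell at 24 h, with a median of -1.40, and -0.97 with spike-in scaling. Their summed linear level was 8.16 to 9.20 at 24 h, against 22.6 to 23.2 in control cells, and 24.2 to 28.0 and 21.2 to 23.1 at 2 h and 6 h. The defining markers Cd163, Mrc1 and C1qc were not above background on all arrays of any group, while Ptprc, Csf1r and Adgre1 were. Against 47.9% of all genes called, cardiomyocyte markers had 2 higher and 11 lower of 15 (86.7%, median -0.33, summed level 952 to 1027 against 1099 to 1177). Fibroblast markers had 0 higher and 8 lower of 11 (72.7%, median -0.34, 123 to 142 against 170 to 182), endothelial markers 1 and 6 of 10 (70.0%, median -0.47), and smooth muscle and pericyte markers 1 and 5 of 8 (median -0.38). These 4 lists had medians of -0.14, -0.14, -0.27 and -0.18 with array medians. With spike-in spots their medians were 0.10, 0.09, -0.04 and 0.05, and 2, 2, 1 and 3 genes were higher and 0, 0, 0 and 1 lower. With slide as a block 1, 0, 1 and 0 were higher and 2, 5, 4 and 3 lower. The leukocyte markers had 12 of 12 lower under all of these settings. The part of these cell types in the lysosome and ligase results was not tested, and in such bulk RNA fewer cells of a type and less RNA per cell cannot be told apart.

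Around TFEB, 3 of 23 further genes of the TFEB family and of lysosomal nutrient sensing rose at 24 h and 9 fell (median -0.09). That is 52.2% called, against 47.9% of all genes. Array medians gave 9 higher and 3 lower, spike-in spots 5 and 0, and slide as a block 0 and 2. Ppargc1a, the PGC-1alpha coactivator of mitochondrial genes, fell by 0.79 ± 0.06 (adjusted p = 2.6e-06). The mTOR inhibitor Deptor fell by 0.67 ± 0.24 (0.041), and the Rag GTPase Rragd by 0.63. Of 42 further autophagy genes 7 rose and 12 fell (median -0.08), or 45.2%, against 47.9% of all genes. Array medians gave 19 higher and 3 lower, spike-in spots 16 and 0, and slide as a block 0 and 1. By size these calls were led by Atg10, the E2-like enzyme that joins Atg12 to Atg5, lower by a change of -0.57, Uvrag at -0.54 and the Ulk1 paralog Ulk2 at -0.47. Of 14 further mitophagy genes 2 rose and 3 fell at 24 h (median -0.06), or 35.7%, with 6 higher and 0 lower under array medians, 3 and 0 with spike-in spots and 0 and 0 with slide as a block. The receptors Fundc1 and Fkbp8 fell by 0.35 and 0.30, and Nipsnap1 fell by 0.26 at 2 h.

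Of 33 further muscle ubiquitin ligases 6 rose and 8 fell at 24 h (median 0.00), or 42.4%, against 47.9% of all genes. Array medians gave 16 higher and 3 lower, spike-in spots 13 and 2, and slide as a block 2 and 2. Asb4 fell by 0.97 ± 0.23, the F-box protein Fbxl22, which sits at the Z-disc, by 0.94 ± 0.06, and the muscle F-box protein Fbxo40 by 0.60 ± 0.08. Ubiquitin supply and deubiquitinases, the list nearest to Uchl1, had 11 higher and 2 lower of 29 (median 0.08), or 44.8%, where 16.2% of all genes were higher. Array medians gave 23 higher and 0 lower, spike-in spots 17 and 0, and slide as a block 2 and 0. Otud1, a deubiquitinase, rose by 1.21 ± 0.09 (adjusted p = 4.3e-06), the proteasome-bound Usp14 by 0.44 and the conjugating enzyme Ube2g1 by 0.39. Of 22 further FoxO factors, regulators and targets 3 rose and 7 fell (median 0.01), or 45.5%, against 47.9% of all genes. Array medians gave 10 higher and 4 lower, spike-in spots 11 and 0, and slide as a block 1 and 3. Among the 7 that fell were the insulin receptor substrate Irs1 at -0.68, the stress protein Sesn1 at -0.62 and the factor Klf15 at -0.56. Among 7 further calpain genes 1 rose and 2 fell, or 42.9%, against 47.9% of all genes, with Capn6 at -1.30, Capn5 at -0.69 and Capn7 at 0.22. Array medians gave 4 higher and 2 lower, spike-in spots 2 and 1, and slide as a block 0 and 2. Under array medians each of these list medians apart from the leukocyte, other cell-type and lysosomal hydrolase ones lay above 0, between 0.11 and 0.27.

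**Figure D5:**
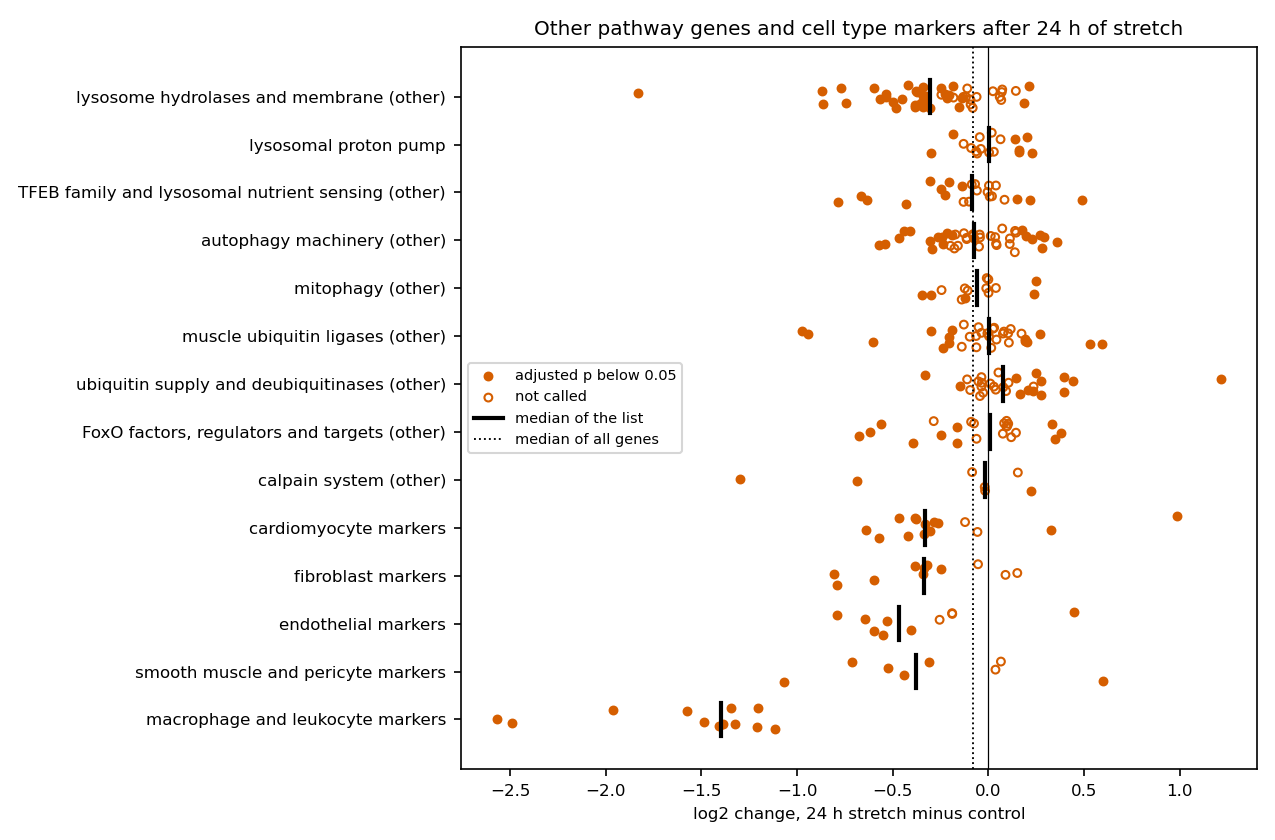
Change after 24 h (log2, 24 h stretch minus control, 3 arrays a group) of the genes of each further list and of each marker list; filled points have an adjusted p below 0.05, thick bars are list medians and the dotted line is the median of all genes at -0.08. Lysosomal hydrolases have a median of -0.31, the proton pump one of 0.00, and the leukocyte markers all lie below -1.1.

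Between times, 1 of the 33 genes was called between 6 h and 2 h (0 higher, 1 lower), where 10.5% of all genes were called, 3.68% higher and 6.80% lower. Between 24 h and 6 h 10 were called (3 higher, 7 lower), or 30.3%, against 25.0% of all genes (9.57% higher and 15.5% lower). Between 24 h and 2 h 18 were called (4 higher, 14 lower), or 54.5%, against 48.2% (18.0% higher and 30.2% lower). The groups did not overlap for 10, 17 and 23 of the 33 genes in these 3 comparisons, where 34.6%, 45.7% and 57.6% of all genes did not overlap. Trim54 and Trim63, higher at 2 h, were lower at 24 h than at 2 h by -0.21 and -0.20 (adjusted p = 0.0086 and 0.023), the Trim63 call being lost without 2 h replicate 2 (0.078) or 24 h replicate 3 (0.077). Both calls were also lost with array medians (each at -0.05), spike-in spots, normexp, quantile normalization, the deposited processed table and slide as a block. Mdm4, lowest at 2 h, was higher at 24 h than at 2 h by 0.16 (0.049), a call lost without 2 h replicate 1 (0.14) or 2 (0.15), any 24 h or 6 h array, or control replicate 2 or 3. The members that differed between 24 h and 6 h were Fbxo32, Trim55, Map1lc3b, Pink1, Lamp1, Ctsb and Ctsd lower, and Uchl1, Sqstm1 and Gabarapl1 higher. Of these, the Lamp1 call was lost without any 1 of 8 arrays (each 6 h and 24 h array, 2 h replicate 3 and control replicate 3; adjusted p of 0.052 to 0.11) and the Ctsd call without 24 h replicate 3 (0.051). The Sqstm1 call was lost without 24 h replicate 1 or 2 or 6 h replicate 1 or 3 (0.064 to 0.12), that of Gabarapl1 without 24 h replicate 2 or any 6 h array (0.053 to 0.079), and that of Map1lc3b without 24 h replicate 2 or 3 or 6 h replicate 1 (0.053 to 0.076). With array medians the 24 h against 6 h calls of Fbxo32 (-0.06, adjusted p = 0.34), Map1lc3b (-0.05, 0.34), Lamp1 (-0.07, 0.30), Ctsb (-0.10, 0.15) and Ctsd (-0.18, 0.077) were lost. With slide as a block only Pink1 and Uchl1 were called, where 7.66% of all genes were. With spike-in spots none of the 33 was, where 7.19% of all genes were. On slide 2 alone, with 1 array at 6 h, limma called 0 of the 33 (7 at an unadjusted p below 0.05), where 1.67% of all genes were called.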

How the data were processed

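Total RNA from 12 cultures was hybridised to 12 1-colour (Cy3) arrays. Per the file headers, the deposited intensity of each spot was background subtracted and detrended (Agilent Feature Extraction 11.0.1.1; version 10.7.3.1 per the submitters' processing notes), and probe coordinates are those of the array design (rn4). A deposited table of processed intensities (12 columns, 28902 probes; scaling and centring not given in the sources used here) served as an alternative only.

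In R 4.3.3, spots flagged as outliers were dropped, spots of a probe averaged, and log2 signals set to the array's 75th percentile. The 30367 probes were named from accession (18005), symbol (2668) or synonym (547), else by the file's name (4963) or not at all (4184), and the 18997 marked well above background throughout at least 1 group were kept. The probe with the highest mean signal stood for each gene. limma 3.58.1 (lmFit, eBayes) fitted all 12 arrays in 4 groups, with Benjamini-Hochberg adjustment over 14376 genes, and the code was tested on simulated data. The number of arrays limits the precision. Values on every array are given for members called with a log2 change of at least 0.4, and for 7 members of interest. Of each further list up to 3 called genes are named. 1 further name of the list is not reported here. Members and lists were chosen with earlier results of these data known. Alternatives were other background corrections, scalings (among them 242 spike-in spots), filters, probes, slide and replicate blocks, and leaving out each array.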

Additional observations from a re-analysis of the deposited data

Results flagged for a closer look

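A test of the difference between stretch times, on the same limma fit, found 29 differences among these genes with an adjusted p below 0.05. Between 6 h and 2 h 3.03% of the 33 genes were called, against 10.5% of all genes. Between 24 h and 6 h the shares were 30.3% and 25.0%, and between 24 h and 2 h 54.5% and 48.2%. Both times share the same control arrays, so each value is the later minus the earlier time, and every one between 24 h and an earlier time crosses slides at least in part.

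In the ligase group, the 24 h level minus the 2 h level was -0.25 for Fbxo32 (adjusted p = 7.2e-04), -0.42 for Trim55 (0.0019), -0.21 for Trim54 (0.0086), -0.20 for Trim63 (0.023), -0.23 for Nedd4 (0.0076) and 0.16 for Mdm4 (0.049). The Trim54 and Trim63 calls were lost under other scalings, as given above. With array medians the calls of Fbxo32 (-0.10, adjusted p = 0.097) and Nedd4 (-0.08, 0.32) were lost too. With slide as a block or spike-in spots the calls of Fbxo32, Trim55, Trim54, Trim63, Nedd4 and Mdm4 were all lost. Against 6 h, Fbxo32 was at -0.16 (0.020) and Trim55 at -0.41 (0.0051). Neither was called with slide as a block or spike-in spots, nor Fbxo32 with array medians (-0.06, 0.34). Uchl1 differed by 0.43 from 2 h (1.1e-04) and by 0.52 from 6 h (7.5e-05). With spike-in spots its difference from 6 h was 0.46 (0.16), not called.

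Among the autophagy genes, 24 h minus 2 h was -0.62 for Pink1 (6.1e-05), -0.32 for Wipi1 (0.0024), -0.28 for Map1lc3a (0.0027), -0.21 for Map1lc3b (0.0016) and -0.18 for Atg7 (0.042). The Atg7 call was lost without any 1 of 7 arrays, namely each 2 h array, 24 h replicates 2 and 3, 6 h replicate 1 and control replicate 2 (adjusted p of 0.052 to 0.12). It was also lost with array medians (-0.03), quantile normalization (-0.07), normexp (-0.14), the deposited processed table (-0.07), slide as a block (-0.30), the replicate block, and no filter on dim probes. It was 0.23 for Gabarapl1 (0.0062) and 0.20 for Gabarapl2 (0.017), the last being lost without 24 h replicate 2 (0.062). Against 6 h the values were -0.42 for Pink1 (0.0017), -0.15 for Map1lc3b (0.018), 0.19 for Gabarapl1 (0.026) and 0.27 for Sqstm1 (0.034), of which the calls of Map1lc3b, Gabarapl1 and Sqstm1 were each lost without any 1 of 3, 4 and 4 arrays. Wipi1 alone differed between 6 h and 2 h, at -0.36 (0.011). With array medians the 24 h against 2 h calls of Wipi1 (-0.17, adjusted p = 0.056), Map1lc3a (-0.13, 0.11) and Map1lc3b (-0.05, 0.30) were lost. The 24 h against 6 h call of Map1lc3b was lost there as well (-0.05, 0.34). Of the autophagy calls between 24 h and an earlier time, slide as a block kept only those of Pink1, and spike-in spots kept none.

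Among the lysosome genes, 24 h minus 2 h was -0.24 for Ctsb (0.0021), -0.34 for Ctsd (0.0024), -0.25 for Lamp1 (0.0029) and -0.35 for Lamp2 (0.0070). Against 6 h it was -0.20 for Ctsb (0.012), -0.28 for Ctsd (0.013) and -0.17 for Lamp1 (0.039), the Ctsd call being lost without 24 h replicate 3 (0.051) and the Lamp1 call without any 1 of 8 arrays (0.052 to 0.11).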

How the results depend on the processing

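The percentile scale gave 4, 4 and 17 of the 33 genes called at 2 h, 6 h and 24 h against control, 1 between 6 h and 2 h, 10 between 24 h and 6 h, 18 between 24 h and 2 h, and 17 over the 4 groups. Leaving out 1 array at a time gave 2 to 3, 3 to 4 and 12 to 18 against control, 1 to 2, 5 to 11 and 15 to 20 between times in the same order, and 13 to 20 over the 4 groups. Counts that moved by over 1.5 times were these. At 2 h against control, 2 were called with no filter on dim probes, with only the groups compared, with the replicate block, with the deposited processed table and on slide 1 alone, and 0 with spike-in scaling. Of all genes 2.92%, 3.22%, 7.16%, 10.1%, 5.66% and 1.26% were called in these fits, in the same order. At 6 h, 7 were called with array medians, 2 with quantile normalization or on slide 1 alone, and 21 with spike-in scaling. Of all genes 19.6%, 14.6%, 9.39% and 47.7% were called in these fits. At 24 h, 9 were called on the spike-in scale and 6 with slide as a block, where 38.1% and 14.2% of all genes were called. Between 6 h and 2 h, 0 were called with only the groups compared, on slide 1 alone or with spike-in scaling. Of all genes 2.52%, 1.66% and 4.64% were called there. Between 24 h and 6 h, 2 were called with slide as a block, and 0 on slide 2 alone or with spike-in scaling. Between 24 h and 2 h, 11 were called with array medians, 1 on the spike-in scale and 2 with slide as a block. Of all genes 53.4%, 18.9% and 12.6% were called in these fits, in the same order. Over the 4 groups, 8 were called on the spike-in scale and 5 with slide as a block, for which the shares of all genes are not given here. The cause of these shifts was not tested. The fits on 1 slide or in 2 groups also hold fewer arrays, and the fit without a filter holds more genes. Requiring a probe to be well above background on all 12 arrays ended none of the calls. Every probe of the 33 genes already met that rule, so it could change only the other genes in the fit.

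Members higher and lower at 24 h against control numbered 4 and 13 with the percentile, 15 and 4 with array medians, 9 and 0 with spike-in spots, 5 and 11 with quantile normalization, 5 and 10 with normexp, and 7 and 8 with the deposited processed table. Of all genes called at 24 h, 66.3% were lower with the percentile, 28.3% with array medians, 10.5% with spike-in spots, 46.7% with quantile normalization, 74.8% with normexp and 55.9% with the processed table.

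Signs turned under 2 scalings, each value being called on at least 1 of the scales. With spike-in spots at 6 h against control, Atg12 was at 0.46, Atg3 0.47, Becn1 0.47, Ctsd 0.45, Fbxo32 0.083, Lamp1 0.46, Mdm4 0.20, Trim55 0.47, Ubb 0.46 and Uchl1 0.45. At 24 h against control, Atg7 was at 0.21, Capn1 0.21, Ctsb 0.18, Ctsd 0.12, Lamp1 0.24, Lamp2 0.15, Mdm4 0.21, Nedd4 0.24, Trim55 0.011 and Ulk1 0.26. At 24 h against 2 h, Atg7 was at 0.079, Ctsb 0.023, Fbxo32 0.0073, Lamp1 0.011, Map1lc3b 0.051, Nedd4 0.026, Trim54 0.053 and Trim63 0.060. With array medians at 24 h against control, Becn1 was at 0.18, Bnip3l 0.17, Lamp1 0.0043, Map1lc3b 0.12, Nedd4 0.0080, Stub1 0.15 and Ulk1 0.026, and at 24 h against 2 h Becn1 was at 0.13 and Stub1 at 0.14.

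The replicate numbers did not pair the cultures: deviations from group means correlated at -0.11 to 0.10 over 18 pairs with the same number, and at -0.14 to 0.17 over 36 pairs with different numbers. With the replicate block 3 genes were called at 6 h against control, 16, 9 and 16 at 24 h against control, 24 h against 6 h and 24 h against 2 h, 1 between 6 h and 2 h, and 16 over the 4 groups. Of all genes 15.0%, 46.2%, 23.3%, 46.6% and 7.92% were called in that fit between pairs of groups, in the same order. The share of all genes over the 4 groups in that fit is not given here. The fit of slide 2 alone was chosen after seeing the data. All 24 h arrays lie on 1 slide and all controls on the other, so the 24 h changes cannot be told apart from slide except through the 6 h arrays.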
